A study of Mus musculus with 6 samples.

Results

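The chemokine ligands were examined as a group: the 29 protein-coding genes named Ccl or Cxcl with a number, or Cx3cl1, among 30315 genes in the table. They were chosen by gene name and biotype, a rule that uses no measured value, though earlier results of these data were known. Cxcl15 and Ccl1 were listed at 0 FPKM (fragments normalized to exon length and library size) in every library. The other 27 were above 0 in at least 1 library.

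Chemokines are small secreted proteins that bind G protein-coupled receptors and guide leukocytes along a gradient. Those with a CXC start and the ELR letters (Cxcl1, Cxcl2, Cxcl5) draw neutrophils through Cxcr2, the interferon-induced CXC ligands draw T cells through Cxcr3, and CC ligands such as Ccl2 draw monocytes. Injured tubular epithelium is a known source of several of them, and their genes are classical targets of NF-kB.

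The libraries came from primary renal tubular epithelial cells (TECs) of C57BL/6 mice, transfected at about 50% confluence with siRNA against Sox9 (siSox9) or with negative control siRNA (siNC). All of them went through hypoxia and reoxygenation (H/R) starting 12 h after transfection, with 6 h in glucose-free medium at 1.0% O2 and then 18 h in complete medium. There were 3 libraries in each group and none without H/R, so the values describe the effect of the siRNA in stressed cells. Nothing in the labels says whether the 3 libraries of a group came from separate cultures or animals, and p-values measure only the spread between these libraries. Knockdown was by transfection of cultured cells, which leaves the untransfected share of a dish unknown.

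Depth was similar in the libraries, from 23893201 to 25725740 reads as recovered from the FPKM steps. Composition was less even. The gene Gm23935 read 2761, 2696 and 3734 FPKM with siSox9 and 748, 11180 and 19473 FPKM with siNC. Its effect on the other values was not tested. Sox9 stood at 8.93, 8.61 and 9.07 FPKM with siSox9 and at 25.7, 26.5 and 25.6 FPKM with siNC. Its siSox9 mean was 34.2% of the siNC mean (limma adjusted p = 7.03e-06), so the target moved as labelled. Epithelial markers (Krt8, Krt18, Epcam, Cdh1 and 4 others) summed to 3814 to 3969 FPKM with siSox9 and 3652 to 3852 FPKM with siNC. Of these 8, Cdh16 was higher with siSox9, at 129.7 against 100.9 FPKM (log2 difference 0.36, limma adjusted p = 0.000307). The other 7 did not pass the threshold. The list for differentiated proximal tubule summed to 2.68 to 3.31 FPKM over both groups. In that list the endocytic receptor Lrp2 averaged 2.27 FPKM and the transporters Slc34a1 and Slc5a2 were at or near 0. All 12 genes of the macrophage list were detected, summing to 214 to 238 FPKM with siSox9 and 218 to 223 FPKM with siNC. Of its 10 tested genes, Lyz2 was higher (log2 difference 0.21) and C1qc was lower (-0.17) with siSox9. Of the neutrophil list S100a8 was at 0 in every library and Ly6g averaged 0.563 FPKM, and of the T cell list Cd8a was at 0 while Trac averaged 1.20 FPKM. The neutrophil list summed to at most 0.952 FPKM and the T cell list to at most 1.64 FPKM, and the endothelial and fibroblast lists summed to at most 4.97 and 9.09 FPKM.

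Levels of the ligands spanned several orders of magnitude. Of the 29 genes, 14 had a mean of at least 1 FPKM over the 6 libraries, 8 lay between 0.1 and 1 FPKM, and 7 were under 0.1 FPKM. Cxcl16, a membrane-anchored ligand of Cxcr6 that also acts as a scavenger receptor, was the highest at 31.9 FPKM on average, 2.49 times the level of Cxcl10 (12.8 FPKM), an interferon-induced ligand of Cxcr3. Ccl2, Cx3cl1, Ccl20 and Ccl6 followed between 5.03 and 7.44 FPKM, and the group ranges of Ccl2 and Cx3cl1 overlapped. Cxcl16 alone made up 33.6% to 38.1% of the summed FPKM of all 29 ligands.

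**Figure D1:**
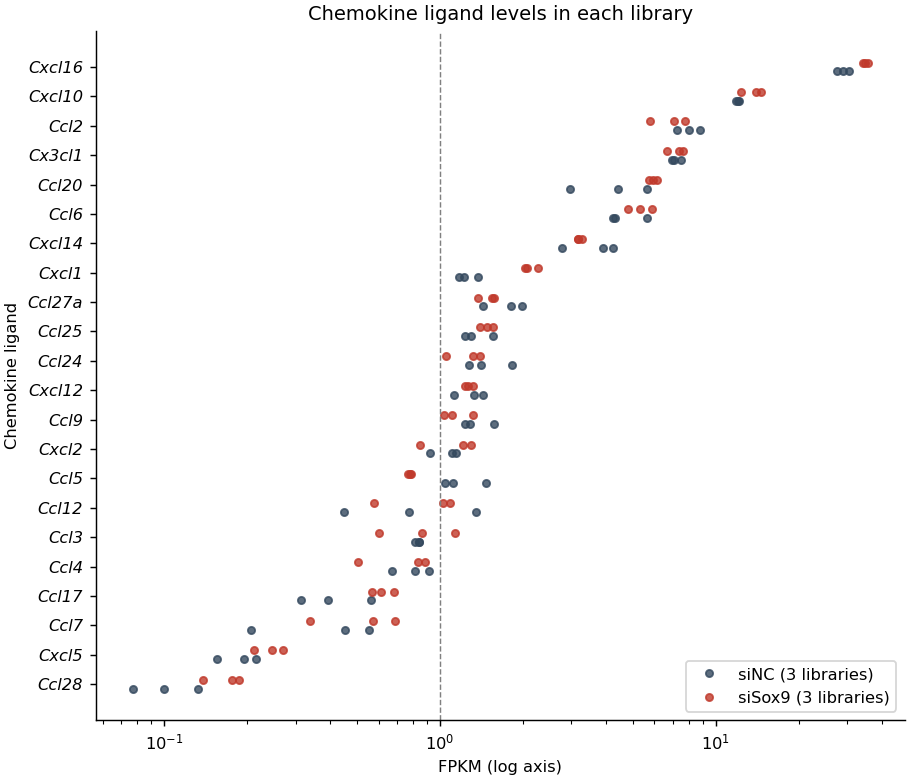
FPKM of the 22 chemokine ligands with a mean of at least 0.1 FPKM, on a log axis; each point is 1 library (siNC dark, siSox9 red) and the dashed line marks the 1 FPKM limit for testing. Cxcl16 lies apart at the top with its red points above the dark ones, while most other ligands have overlapping points.

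The summed level of the 29 ligands was 91.9 ± 1.35 FPKM with siSox9 and 83.4 ± 3.14 FPKM with siNC (SD, n = 3), and the groups did not overlap. Ppbp, a chemokine outside the Ccl and Cxcl names, is not in these sums. It averaged 117 FPKM with siSox9 and 144 FPKM with siNC, more than the sum in each group and in the opposite direction. The sums therefore do not give the direction of all chemokine ligand transcripts together. Without Cxcl16 the sums were 57.0 ± 0.753 and 54.4 ± 2.48 FPKM, and the ranges overlapped. In bulk RNA, fewer cells of a type and less RNA per cell cannot be told apart, and this holds for each ligand described here.

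The comparison of siSox9 with siNC asked whether lowering Sox9 in TECs under H/R altered chemokine transcripts. Cxcl16 and Cxcl1 were higher with siSox9, by 1.20-fold and 1.70-fold, and no ligand was lower past the threshold. At an unadjusted limma p under 0.05 the lower count was also 0 of the 14, and with voom weights on recovered reads 0 were called lower. The other 12 ligands tested did not pass. Differences were fitted with limma on log2(FPKM + 1) across every gene whose mean reached 1 FPKM, two-sided, with Benjamini-Hochberg adjustment and a threshold of 0.05; on this scale the change of low genes is understated. Among the 12009 genes tested, 30.4% passed the threshold, 12.8% as higher and 17.6% as lower. The 2 of 14 ligands that were higher amount to 14.3%, close to the 12.8% of all genes, so the group as a whole did not stand out by its count. The median log2 difference was 0.02 over the 14 ligands and -0.01 over all genes tested. Libraries of the groups did not overlap for 4 of the 14 ligands (Cxcl16, Cxcl10, Ccl20 and Cxcl1, all above with siSox9), and 0 lay below, against 46.3% of all genes tested in either direction, 20.2% above and 26.1% below. With no filter on low values 27 ligands were tested and the same 2 were called, where 9.6% of all genes were. With voom weights on recovered reads 3 of 22 were called (Cxcl16, Cxcl1 and Ccl20, all higher), where 27% of all genes were called and 10.5% were higher.

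**Figure D2:**
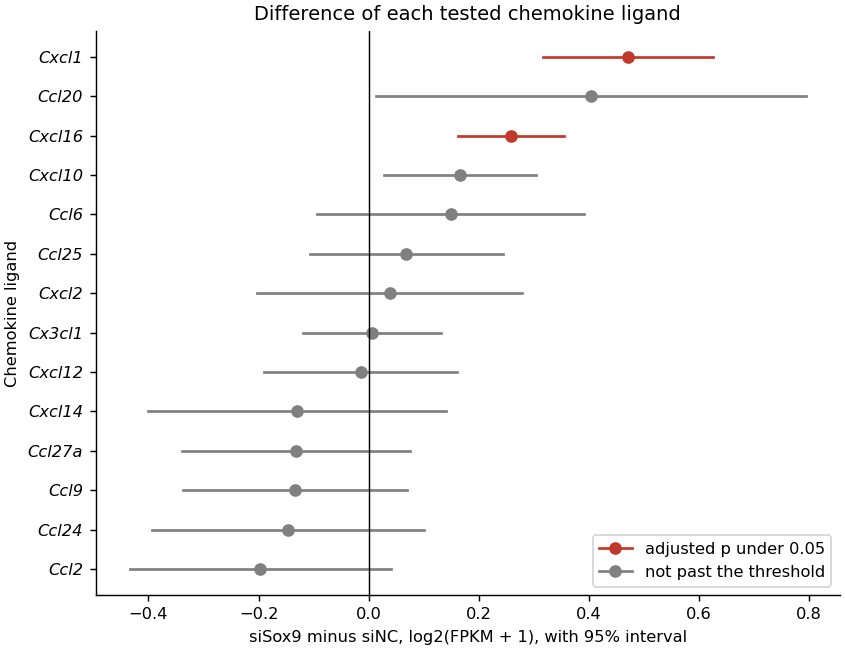
Difference between siSox9 and siNC for the 14 tested ligands on the log2(FPKM + 1) scale; points are the limma estimates, lines their 95% intervals, and red marks an adjusted p under 0.05. Cxcl1 and Cxcl16 are red and lie right of 0, Ccl20 has the widest interval, and no ligand to the left of 0 is red.

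Among the ELR-type ligands of Cxcr1 and Cxcr2 listed under Cxcl names, 2 of 5 were tested. This list is not the whole class. Ppbp, at 131 FPKM on average and lower with siSox9, is not in it and is described below. Cxcl1, the main neutrophil attractant of this class in the mouse, read 2.03, 2.08 and 2.28 FPKM with siSox9 and 1.37, 1.17 and 1.22 FPKM with siNC. Every siSox9 library lay above every siNC library. The log2 difference was 0.47 ± 0.07 (SE), with a 95% interval from 0.32 to 0.63 and a limma adjusted p of 0.00224. These levels rested on few reads, 98, 99 and 102 with siSox9 and 64, 53 and 57 with siNC.

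Cxcl2, which shares the receptor Cxcr2 and lies next to Cxcl1, read 1.30, 1.22 and 0.850 FPKM with siSox9 and 1.11, 0.921 and 1.15 FPKM with siNC. The groups overlapped, with the third siSox9 library the lowest of the 6, and the log2 difference was 0.04 (95% interval -0.20 to 0.28). The ratio of Cxcl1 to Cxcl2 was 1.57, 1.71 and 2.68 with siSox9 and 1.24, 1.27 and 1.07 with siNC. Those ratios did not overlap, which gives an exact two-sided permutation p of 0.1, the smallest that 3 against 3 libraries allow. The ratio was not a planned comparison, and its highest value rests on 42 reads of Cxcl2. With voom weights on recovered reads, the 95% intervals of Cxcl1 (0.41 to 1.09) and Cxcl2 (-0.36 to 0.50) overlapped. Of the untested members, Cxcl5 was at 0.243 ± 0.0301 and 0.189 ± 0.0306 FPKM (SD, n = 3) with overlapping ranges, and Cxcl3 and Cxcl15 were at or near 0. Of the stretches of 50 bases in Cxcl2 transcripts, 5.84% also occur in Cxcl3, and none of those of Cxcl1 occurs in another gene.

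All 5 genes lie within 146579 bases, at chr5:90759360-90905938 (GRCm38), with Cxcl1 at chr5:90891241-90893115. The promoters of Cxcl1 and Cxcl2 are shown because the neighbours differ in their result while sharing an NF-kB-type match, and that of Ccl20 because its groups did not overlap either. Each runs from 250 bases before the start to 50 after it (RefSeq, GRCm38.p6, plus strand of the chromosome in all 3, Cxcl1 at chr5:90890995-90891294, Cxcl2 at chr5:90903649-90903948, Ccl20 at chr1:83116516-83116815). Capitals mark matches on either strand to the NF-kB type (GGG, then any pair of bases, then TTTCC) and to the SOX-type words ACAATG and ACAAAG.
Cxcl1: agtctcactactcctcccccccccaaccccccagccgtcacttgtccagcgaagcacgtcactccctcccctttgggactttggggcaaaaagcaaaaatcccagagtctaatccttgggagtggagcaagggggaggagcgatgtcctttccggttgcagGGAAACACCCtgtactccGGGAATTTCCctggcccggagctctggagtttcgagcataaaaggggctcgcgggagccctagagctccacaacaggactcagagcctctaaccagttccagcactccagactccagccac
Cxcl2: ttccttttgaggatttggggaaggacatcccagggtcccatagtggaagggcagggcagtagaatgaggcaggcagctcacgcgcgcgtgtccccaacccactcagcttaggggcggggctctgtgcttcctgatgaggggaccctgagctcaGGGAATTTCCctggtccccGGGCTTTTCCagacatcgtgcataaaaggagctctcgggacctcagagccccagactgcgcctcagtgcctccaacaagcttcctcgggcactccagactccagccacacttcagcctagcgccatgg
Ccl20: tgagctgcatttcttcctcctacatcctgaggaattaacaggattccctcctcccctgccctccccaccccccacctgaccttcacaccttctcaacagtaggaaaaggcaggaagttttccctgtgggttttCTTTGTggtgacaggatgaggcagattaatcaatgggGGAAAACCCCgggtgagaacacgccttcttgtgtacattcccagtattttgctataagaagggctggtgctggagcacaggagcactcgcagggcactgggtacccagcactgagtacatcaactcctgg

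The NF-kB-type match occurred in the promoters of 5 of the 21 ligands with a RefSeq promoter entry (Cxcl1, Cxcl2, Cxcl3, Ccl20 and Ccl9), and in 1.89% of 27025 genes with such a promoter. Counting from the start to the first base of the match, Cxcl1 held it at positions -89 and -71 and Cxcl2 at -97 and -78, the word at -71 in Cxcl1 and at -97 in Cxcl2 being the same GGGAATTTCC. ACAATG was found in none of the 21, against 14.3% of genes, and ACAAAG in 3 (Ccl12, Ccl20 and Cxcl15), against 5680 of the 27025 genes. These are letters in a short window and not measured binding. Ligands with the NF-kB-type match included Cxcl1, which rose, and Cxcl2, Ccl20 and Ccl9, which did not pass the threshold. Cxcl16, which also rose, is among the 8 ligands without a promoter entry, as are Ccl2 and Ccl5, so they were not searched.

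Of the interferon-induced ligands of Cxcr3, only Cxcl10 was tested. It read 14.0, 12.3 and 14.6 FPKM with siSox9 and 11.9, 12.0 and 12.1 FPKM with siNC. The siNC libraries were close together and all lay below the siSox9 ones, of which the second was nearest. The log2 difference was 0.17 ± 0.06 (SE, 95% interval 0.03 to 0.30), and the limma adjusted p of 0.0704 missed the threshold. Without the second siSox9 library the limma adjusted p was 0.0125 (log2 difference 0.23), and over all alternatives it ran from 0.0125 to 0.178. Cxcl9, induced by interferon gamma, had at most 1 read in a library. Of 15 interferon-response genes, 8 were tested, 0 were higher (1 at an unadjusted limma p under 0.05, and 0 with voom weights) and Gbp2, an interferon-induced GTPase, was lower, at 75.5% of its siNC level (log2 difference -0.28, limma adjusted p = 0.00829).

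The remaining CXC ligands were led by Cxcl16 (chr11:70453983-70459984, GRCm38, minus strand), which read 34.7, 34.2 and 35.6 FPKM with siSox9 and 27.7, 30.5 and 28.9 FPKM with siNC. The lowest siSox9 library was above the highest siNC library. The log2 difference was 0.26 ± 0.04 (SE), with a 95% interval from 0.16 to 0.35 and a limma adjusted p of 0.00374. With 2074 to 2698 reads a library, it was the best measured ligand. Genes of the macrophage list were also detected in these libraries, and which cells made Cxcl16 or the other ligands was not tested. Exons of Zmynd15, on the other strand, cover 18.3% of its exon bases; Zmynd15 was at 2.14 ± 0.168 and 2.08 ± 0.437 FPKM (SD, n = 3) with overlapping ranges, far under Cxcl16, and whether reads were counted by strand is not given in the sources used here.

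Cxcl14, a ligand made by many epithelia, read 3.17, 3.17 and 3.28 FPKM with siSox9 and 2.78, 4.24 and 3.92 FPKM with siNC. The siNC libraries lay on both sides of the siSox9 ones, and the log2 difference was -0.13 (95% interval -0.40 to 0.14). Without the first siNC library it was -0.27 with a limma adjusted p of 0.0122, within a range of 0.0122 to 0.837 over the alternatives. Cxcl12, the ligand of Cxcr4 made mainly by stroma, read 1.27, 1.23 and 1.32 FPKM with siSox9 and 1.44, 1.33 and 1.12 FPKM with siNC, a log2 difference of -0.01 (95% interval -0.19 to 0.16). Cxcl13 and Cxcl17 had at most 3 reads in a library.

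**Figure D3:**
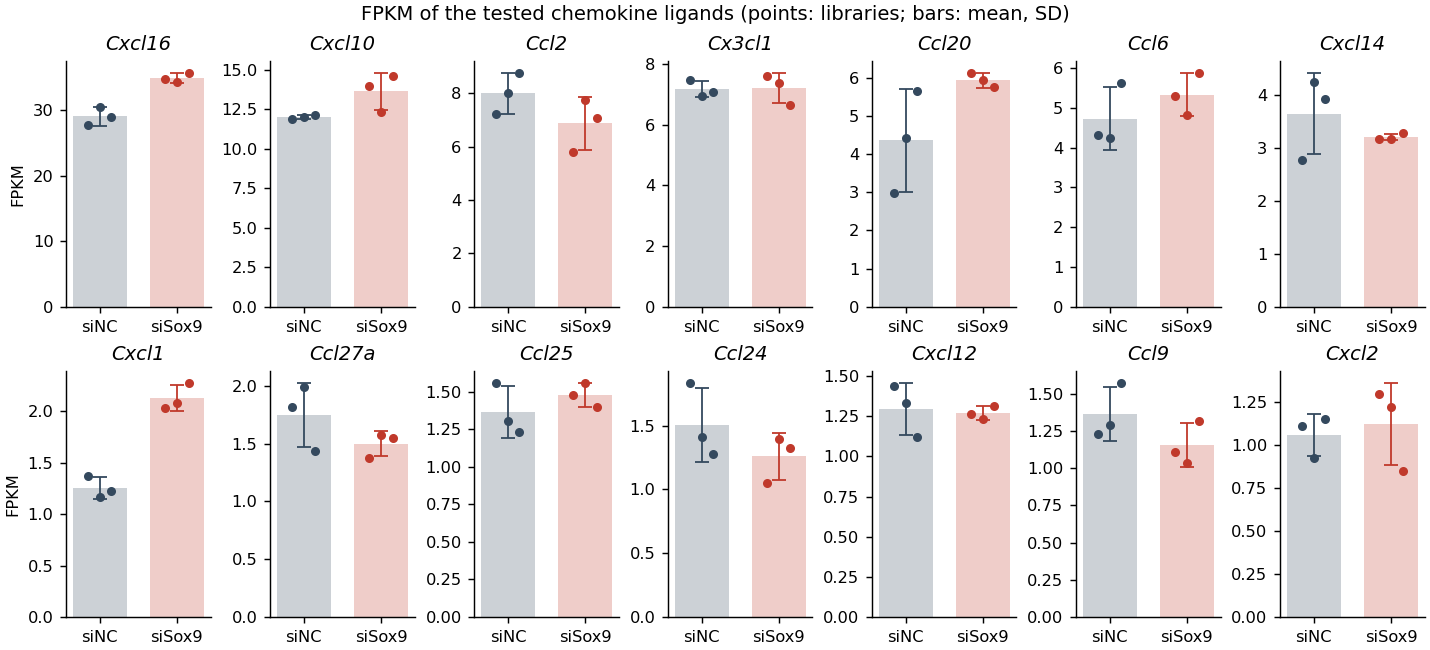
FPKM of the 14 tested ligands in each library; points are libraries, bars the group means from 0 and lines the SD (siNC dark, siSox9 red, 3 libraries each). For Cxcl16, Cxcl10, Ccl20 and Cxcl1 the red points all lie above the dark ones, and for the other 10 the points overlap.

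None of the monocyte-attracting and eotaxin-type CC ligands passed the threshold. Ccl2, the main ligand of Ccr2, read 5.81, 7.75 and 7.06 FPKM with siSox9 and 7.22, 8.01 and 8.77 FPKM with siNC. The first siSox9 library was the lowest and the groups overlapped, with a log2 difference of -0.20 ± 0.10 (SE, 95% interval -0.43 to 0.04, limma adjusted p = 0.183). Ccl24, an eotaxin that binds Ccr3, read 1.05, 1.40 and 1.33 FPKM with siSox9 and 1.83, 1.41 and 1.27 FPKM with siNC, a log2 difference of -0.15 (95% interval -0.39 to 0.10). Ccl7 and Ccl12, neighbours of Ccl2 on chromosome 11 that also bind Ccr2, were under 1 FPKM. Ccl7 was at 0.534 ± 0.178 and 0.404 ± 0.178 FPKM, and Ccl12 at 0.899 ± 0.279 and 0.857 ± 0.456 FPKM (SD, n = 3), each on 18 reads a library or fewer.

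Of the 5 inflammatory CC ligands (Ccl3, Ccl4, Ccl5, Ccl6 and Ccl9), which lie together at chr11:83525778-83664683 (GRCm38), 2 were tested and 0 passed. Ccl6 read 5.31, 4.80 and 5.88 FPKM with siSox9 and 4.31, 4.24 and 5.63 FPKM with siNC, with overlapping groups and a log2 difference of 0.15 (95% interval -0.09 to 0.39). Ccl9 read 1.11, 1.03 and 1.32 FPKM with siSox9 and 1.23, 1.29 and 1.57 FPKM with siNC, a log2 difference of -0.13 (95% interval -0.34 to 0.07). Both are rodent ligands of Ccr1 that myeloid cells are known to make, and the macrophage list given above bears on them; its part in these values was not tested.

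Ccl5, an attractant of T cells and monocytes, fell just short of the limit for testing with a mean of 0.995 FPKM. It read 0.769, 0.779 and 0.785 FPKM with siSox9 and 1.05, 1.12 and 1.47 FPKM with siNC, so every siSox9 library lay below every siNC library, on 18 to 35 reads. With no filter on low values its limma adjusted p was 0.0939 (log2 difference -0.31), and with voom weights on recovered reads the limma adjusted p was 0.123 (log2 difference -0.61). Scaled to TPM (FPKM rescaled to the same total in each library), it was the only ligand of 20 tested called lower, with a limma adjusted p of 0.0406 (log2 difference -0.46), where 8.72% of all genes were called lower. Ccl3 and Ccl4 were at 0.865 ± 0.265 and 0.831 ± 0.0173 FPKM, and at 0.742 ± 0.205 and 0.800 ± 0.122 FPKM, with siSox9 and siNC (SD, n = 3), and their ranges overlapped.

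Among CC ligands of lymphoid, skin and mucosal sites, Ccl20, the epithelial ligand of Ccr6, read 6.13, 5.93 and 5.74 FPKM with siSox9 and 2.98, 4.43 and 5.66 FPKM with siNC. The siSox9 libraries were close together while the siNC libraries were spread, the third nearly reaching the siSox9 level. The log2 difference was 0.40 ± 0.17 (SE, 95% interval 0.01 to 0.79), and the limma adjusted p of 0.109 missed the threshold. Without the third siNC library the limma adjusted p was 0.0239 (log2 difference 0.58), and with voom weights on recovered reads it was 0.0243 (log2 difference 0.49). The range over all alternatives was 0.0239 to 0.271.

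Ccl25, a ligand of Ccr9 known from thymus and gut, read 1.48, 1.55 and 1.39 FPKM with siSox9 and 1.56, 1.30 and 1.23 FPKM with siNC, a log2 difference of 0.07 (95% interval -0.11 to 0.24). Ccl27a, a skin ligand of Ccr10, read 1.37, 1.57 and 1.55 FPKM with siSox9 and 1.81, 1.99 and 1.44 FPKM with siNC, a log2 difference of -0.13 (95% interval -0.34 to 0.08). Its level is uncertain, since 45.0% of the stretches of 50 bases in its transcripts also occur in near-identical genes such as Ccl27b. Ccl17, a ligand of Ccr4, was at 0.621 ± 0.0558 and 0.423 ± 0.128 FPKM, and Ccl28, a mucosal ligand of Ccr10, at 0.167 ± 0.0257 and 0.103 ± 0.0282 FPKM (SD, n = 3). Both had all siSox9 libraries above all siNC libraries, on at most 9 and 23 reads a library. Neither could pass the filter of 1 FPKM, and with voom weights their limma adjusted p was 0.427 and 0.150.

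Cx3cl1, or fractalkine, is a membrane-bound ligand whose shed form attracts cells with Cx3cr1. It read 7.61, 7.38 and 6.66 FPKM with siSox9 and 7.47, 6.95 and 7.10 FPKM with siNC, with overlapping groups. The log2 difference was 0.01, and its 95% interval of -0.12 to 0.13 was among the narrowest of the ligands. Of the 12 ligands that did not pass, 11 had a 95% interval within 0.5 of 0 on the log2(FPKM + 1) scale, Ccl20 being the exception. This scale understates low genes, so it does not bound their fold change. With voom weights on recovered reads, a 95% bound also went past 0.5 in size for Ccl24 (-0.719), Ccl9 (-0.571), Ccl27a (-0.537) and Cxcl2 (0.501).

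Of 18 receptors in the list, 14 were in the table and 12 of those were under 1 FPKM. Ccr1, the receptor of Ccl6 and Ccl9, was the highest at 3.28 FPKM on average and did not pass the threshold (log2 difference 0.05). Cxcr2, the receptor of Cxcl1, averaged 0 and 0.00453 FPKM with siSox9 and siNC. Cxcr6, the receptor of Cxcl16, was covered by 5, 6 and 5 reads in the siSox9 libraries and by 3, 4 and 2 in the siNC libraries. Ccr1, Cxcr2 and Cxcr6 are named for their ligands, after their values were seen. Cx3cr1 was lower with siSox9, at 1.53 ± 0.0795 against 1.96 ± 0.129 FPKM (SD, n = 3, log2 difference -0.22, limma adjusted p = 0.0323), a call kept in only 4 of 13 alternatives, whose adjusted p ran from 0.0168 to 0.104. All 6 atypical receptors were under 1 FPKM.

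Ppbp, the precursor of platelet chemokines that the Ccl and Cxcl names do not cover, was 4.09 times the level of Cxcl16 on average. It is in neither the ligand sums nor the ELR-type list given above, and its difference was opposite in sign to those of Cxcl1 and Cxcl16. It read 110.0, 113 and 129 FPKM with siSox9 and 133, 152 and 147 FPKM with siNC, so the siSox9 libraries were all below. The log2 difference was -0.30 ± 0.07 (SE) with a limma adjusted p of 0.0206, which rose to 0.0755 with no filter and to between 0.0644 and 0.0732 when siSox9 library 1 or 2 or siNC library 2 or 3 was left out. Pf4, its neighbour, did not pass the threshold.

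Genes that shed, cut or anchor chemokines gave 1 higher and 2 lower of 8 tested, where 12.8% of all genes were higher and 17.6% were lower. The lower count was 0 with no filter on low values, where Mmp2 had a limma adjusted p of 0.0516, and 1 in most other alternatives. Sdc4, a heparan sulfate proteoglycan, was higher (99.4 ± 3.88 against 87.5 ± 1.58 FPKM, log2 difference 0.18). Mmp2, a matrix protease, was lower (3.90 ± 0.467 against 5.44 ± 0.498 FPKM, log2 difference -0.40), as was Ext1, a heparan sulfate polymerase (log2 difference -0.14), whose call was kept in only 5 of 14 alternatives. Their limma adjusted p was 0.00956, 0.0130 and 0.0447.

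Of 15 NF-kB factors and inhibitors, 4 were higher and 1 was lower, with a median log2 difference of 0.08. The total of 5 of 15 is near the 30.4% of all genes that passed. By direction, 4 of 15 is above the 12.8% of all genes that were higher, and 1 of 15 is below the 17.6% that were lower. Whether the list differs from all genes was not tested. The largest were Nfkbie, an inhibitor of NF-kB, at 15.8 ± 0.743 against 12.7 ± 0.816 FPKM (SD, n = 3, log2 difference 0.29, limma adjusted p = 0.00731), and Ikbkg, the regulatory subunit of the IKK complex, at 10.6 ± 0.353 against 8.53 ± 0.0538 FPKM (log2 difference 0.28, limma adjusted p = 0.00161). Nfkb2, which yields the p52 subunit, was at 48.3 ± 1.28 against 41.2 ± 0.880 FPKM (log2 difference 0.22, limma adjusted p = 0.00266).

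Cytokines and receptors that act upstream of chemokines had 8 higher and 4 lower of 20 tested, with a median log2 difference of 0.18, where 12.8% of all genes were higher and 17.6% were lower. The 8 became 5 with no filter on low values and 5 with a minimum mean of 5 FPKM. Csf1, the macrophage growth factor, was at 160.4 ± 5.84 FPKM with siSox9 and 106 ± 3.50 FPKM with siNC (SD, n = 3, log2 difference 0.59, limma adjusted p = 0.000128). Il1rn, the interleukin-1 receptor antagonist, was at 3.43 ± 0.223 against 2.13 ± 0.194 FPKM (log2 difference 0.50, limma adjusted p = 0.00173). Il33, an epithelial alarmin, was at 0.725 ± 0.0816 against 1.47 ± 0.169 FPKM (log2 difference -0.52, limma adjusted p = 0.00372). Across these lists and those on receptors, anchoring, interferon response and chemokines outside the Ccl and Cxcl names (Ppbp), 13 genes were higher and 10 were lower. The numbers tested were 20 upstream, 15 NF-kB, 8 anchoring, 8 interferon-response, 2 receptor and 2 outside-name genes. Over all genes tested, 12.8% were higher and 17.6% were lower.

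**Figure D4:**
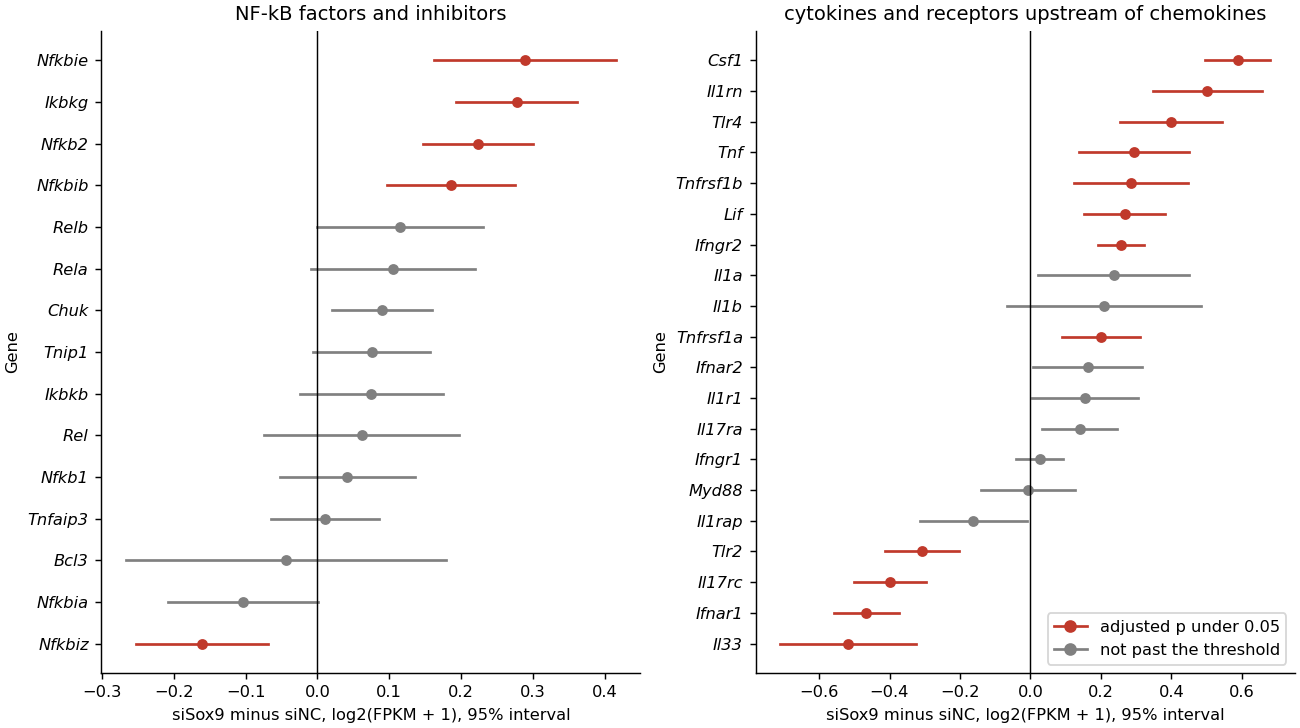
Difference between siSox9 and siNC on the log2(FPKM + 1) scale for the tested genes of the NF-kB list (left) and of the list of upstream cytokines and receptors (right); points are limma estimates, lines 95% intervals, and red an adjusted p under 0.05. The left panel has 4 red genes right of 0 and 1 left of it, and the right panel 8 and 4.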

How the data were processed

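RNA-Seq was performed on 6 libraries of mouse primary renal TECs, 3 per group. The authors deposited FPKM values per gene, with no further scaling given; the submitters' processing notes name HISAT2 2.1.0, Bowtie2 2.2.3, TopHat2 and mm9, in no stated order. Positions of all 29 ligands were those of GENCODE M21 (GRCm38), so GRCm38 coordinates are given. Using its exon lengths, 91.0% of deposited FPKM values above 0 came out as whole reads (tolerance 0.02 reads). The siSox9 columns carry a code in place of the target's name and were assigned as those not named for siNC.

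The members and the lists were chosen with earlier results of these data known. Groups were compared with limma 3.58.1 (R 4.3.3; lmFit, eBayes with trend) on log2(FPKM + 1) for the 12009 genes whose mean reached 1 FPKM, with Benjamini-Hochberg adjustment over all of them. Voom on recovered reads (15096 genes with a mean of at least 5 reads, 4071 called) was added after seeing the data. On simulated data for this comparison (12051 genes), 97 of 100 genes changed 2-fold and 95 of 100 changed 1.5-fold were called, as were 20 of 11851 unchanged. The simulated spread between libraries was fixed in advance, not taken from these data, and genes near 1 FPKM were not changed. These rates therefore do not give the power for the low or widely spread ligands. Single values were tested by exact permutation, whose smallest p is 0.1. Alternatives were another pseudocount, other filters, TPM, median centring, quantile normalization, a replicate block and leaving out each library. Libraries were not copies of each other: the mean chi-square per gene was 1.97 to 6.55 within groups. Within siNC it was 6.50 and 6.55 for library 1 against libraries 2 and 3, and 2.66 between libraries 2 and 3.

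Every ligand of at least 1 FPKM was named with all values, those from 0.1 FPKM by value and the rest by count. From each list the 3 genes past the threshold with the largest change and no overlap were named, and Nfkbiz was added as the 1 lower gene of its list. Promoters came from RefSeq tables (GRCm38.p6), which held 21 of the 29 ligands. In the table, 25 gene names had been turned into dates. Ligands and receptors not in the table, among them Ccl8, Ccl11, Ccl19 and Ccr7, were not analysed here, and Cxcl11 was left out because it is listed as a polymorphic pseudogene.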

Additional observations from a re-analysis of the deposited data

How the results depend on the processing

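The calls of Cxcl16 and Cxcl1 held in every alternative that tested them, 14 and 13 respectively, and no ligand reversed a call. Of 188 ligand values under alternatives, 183 kept their side of the threshold and 5 passed it anew (Cxcl10, Ccl20 and Cxcl14); Cx3cl1, Cxcl12 and Cxcl2, all near 0, changed sign in some. The number of ligands called higher was 1 with a mean of at least 5 FPKM, which leaves Cxcl1 untested, and 2 to 3 when a library was left out. The number called lower was 1 with TPM (Ccl5) and 0 to 1 when a library was left out (Cxcl14, without siNC replicate 1). Genes of the other lists called lower numbered 10, but 6 with no filter, 6 with a mean of at least 5 FPKM, and 6 to 9 when a library was left out (6 without siSox9 replicate 2 or siNC replicate 3); the cause was not tested. Median centring gave 1959 higher and 1765 lower genes of 12009, against 1532 and 2118, and 3 ligands higher; quantile normalization gave 1812 and 1797. Without a filter 2700 of 28122 genes were called, 9.6%, against 30.4%.

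Same-numbered libraries did not deviate together (correlations 0.065, -0.050 and 0.0078). With the replicate block, 2 ligands were higher and 0 lower, and 14 and 9 list genes were higher and lower, and Sox9 stayed at -1.45 (limma adjusted p = 0.000781). The call of Cx3cr1 was lost with the block (limma adjusted p = 0.0692).

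Depth limits the low ligands: 3 reads of a 1 kb transcript equal 0.117 to 0.126 FPKM, and for Cxcl15 and Ccl1 a count of 0 allows up to 0.0590 and 0.0530 FPKM. This covers counting error only.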
